A study of Mus musculus with 32 samples.

Results

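The genes followed here are integrins and leukocyte adhesion molecules, 9 genes chosen by name as a functional family out of 42524 genes in a count table of mouse spinal cord. They are the integrin ligands Icam1 and Vcam1, the selectin ligand Selplg, the β2 integrin subunit Itgb2 with its partners Itgam and Itgal, the α subunits Itga4 and Itga5, and Itgb5. All 9 had a row in the table (Icam1 ENSMUSG00000037405, Vcam1 ENSMUSG00000027962, Selplg ENSMUSG00000048163, Itgb2 ENSMUSG00000000290, Itgam ENSMUSG00000030786, Itgal ENSMUSG00000030830, Itga4 ENSMUSG00000027009, Itga5 ENSMUSG00000000555 and Itgb5 ENSMUSG00000022817), and all 9 passed the filter on low counts in every fit.

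White blood cells leave the blood by rolling on selectins through ligands such as PSGL-1, the product of Selplg, and by then arresting on ICAM-1 and VCAM-1 of the endothelium through integrins. An integrin is a pair of 1 α and 1 β subunit, so that Itgb2 (CD18) forms LFA-1 with Itgal (CD11a), Mac-1 or complement receptor 3 with Itgam (CD11b), and complement receptor 4 with Itgax (CD11c). In the healthy nervous system Itgam and Itgb2 are carried mainly by microglia, the resident phagocytes, while Itgb1, Itgav and Itgb5 also occur in many other cells and bind extracellular matrix.

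RNA was measured in 32 spinal cords, 4 in each of 8 groups given by genotype, treatment and time. WT mice were wild-type littermates and G93A mice carried the human SOD1-G93A transgene, a model of amyotrophic lateral sclerosis (ALS), both on a C57BL/6J background and predominantly female. Mice were untreated or given OKN-007, a nitrone compound, and were taken at 90 days (the labels' time, which the study's methods give as 95 days of age) or at 155 days. The study's cohorts that ended at these ages received the higher of its doses in drinking water, and its methods do not say which of them were sequenced. For the higher dose the methods name females alone. The transgene is expressed broadly and not in 1 cell type, so the G93A groups carry the mutant protein in microglia and endothelium as well as in motor neurons. The 2 times are separate mice, and any difference in how they were collected cannot be told apart from age.

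Levels are given in CPM (a gene's reads scaled to a library of fixed size, after TMM normalization), and differences between groups as log2 fold changes from edgeR's quasi-likelihood test with the standard error (SE) and a p adjusted by Benjamini-Hochberg over all genes tested. A gene is said to rise or fall where that adjusted p was under 0.05. Each mouse had between 19701722 and 30138257 reads counted on genes, and 3 counts in the smallest library correspond to 0.152 CPM. The tissue carried the markers of spinal cord: at 155 days in untreated WT mice 4 neuronal genes summed to 2768 to 3211 CPM, 4 oligodendrocyte genes to 16477 to 17842 CPM and 6 astrocyte genes to 4095 to 4555 CPM. In G93A mice of that time the neuronal sum was lower without overlap, at 1731 to 2300 CPM untreated and 1446 to 2033 CPM treated. In each treatment 4 of 4 neuronal genes fell, against 18.2% of all genes tested. The part of this shift in the levels of the family was not tested. Of 2 Schwann cell genes (Prx and Pmp2), which mark nerve roots, the sum was 247 CPM in WT untreated replicate 3 and 43.0 CPM in G93A untreated replicate 10 of 90 days, and at most 11.01 CPM in the other 30 mice. The mean log2(CPM + 1) of 6 caudal Hox genes, which mark the position along the cord, differed between the groups of 155 days: it lay from 2.93 to 4.16 in WT mice and from 0.56 to 3.01 in G93A mice. This difference cannot be told apart from genotype by the groups alone. For 155 days, only the count of members called and the value of Itgb2 in untreated mice are given below also with this score in the model.

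Before the levels, 3 promoters are shown from RefSeq (mouse build GRCm38.p6), 5′ to 3′ on the gene's strand, each from 250 bases before to 50 bases after the annotated start. They were picked from the 5 members whose promoter was at hand, to set side by side the ligand Icam1, the myeloid integrin gene Itgam and Itga4, the 1 member that did not differ between the genotypes. Capitals mark matches to 4 motifs searched on both strands: GGAANTTCC, an NF-κB type site, TTCNNNGAA, a STAT type site, the TATA box TATAAA, and the core GAGGAA that is bound by the myeloid factor PU.1.
Icam1, chr9:21015690-21015989, plus strand: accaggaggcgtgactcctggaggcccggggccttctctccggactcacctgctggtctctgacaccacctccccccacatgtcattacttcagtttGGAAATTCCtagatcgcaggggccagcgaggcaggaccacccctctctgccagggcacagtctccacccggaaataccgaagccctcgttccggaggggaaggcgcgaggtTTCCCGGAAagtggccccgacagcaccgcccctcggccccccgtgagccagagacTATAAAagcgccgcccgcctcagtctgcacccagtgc
Itgam, chr7:128062390-128062689, plus strand: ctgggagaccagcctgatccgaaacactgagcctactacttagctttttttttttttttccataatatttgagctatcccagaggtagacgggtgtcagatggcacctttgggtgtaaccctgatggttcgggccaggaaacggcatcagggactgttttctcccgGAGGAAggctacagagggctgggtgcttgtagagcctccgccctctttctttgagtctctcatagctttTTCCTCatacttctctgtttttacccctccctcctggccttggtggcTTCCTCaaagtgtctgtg
Itga4, chr2:79255176-79255475, plus strand: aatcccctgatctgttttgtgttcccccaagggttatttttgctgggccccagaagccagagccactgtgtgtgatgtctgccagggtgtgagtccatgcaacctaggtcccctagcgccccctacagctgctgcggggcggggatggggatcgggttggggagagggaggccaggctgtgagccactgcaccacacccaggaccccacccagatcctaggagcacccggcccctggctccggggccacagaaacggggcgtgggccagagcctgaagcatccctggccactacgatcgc
The Icam1 window held GGAANTTCC at -153, TTCNNNGAA at -42 and TATAAA at +14 from the annotated start. Itgam held GAGGAA at -84, -15 and +33, the last 2 on the opposite strand. Itga4 held none of the 4 motifs, nor did Itgb5, and Itga5 held GAGGAA on the opposite strand at -127. Among 32851 promoter windows of the same length, GGAANTTCC occurred in 0.928%, TTCNNNGAA in 8.3%, TATAAA in 13.6% and GAGGAA in 28.3%. These are matches of letters and were not tested as sites.

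The first question was how the family differed between G93A and WT cords late in the disease, at 155 days. In untreated mice 8 of the 9 genes rose in G93A, against 21.3% of the 18675 genes tested that rose and 39.5% called in either direction. The same 8 did not overlap between the 4 G93A and the 4 WT mice, where 17.4% of all genes were higher without overlap. The median log2 fold change was 2.27 over the 9 members and 0.00 over all genes. In the mice given OKN-007, which are other animals, 8 of 9 rose again, against 23.3% of genes that rose and 41.5% called, and the median was 2.37 against 0.02 over all genes. Without overlap 8 of 9 were higher, against 22.6% of genes. The mean of both treatments also gave 8 of 9, against 28.8% of genes that rose and 54.7% called. Itga4 was the exception in both.

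Icam1 encodes the ligand of LFA-1 and Mac-1. It stood at 2.65, 2.95, 2.91 and 2.82 CPM in the 4 untreated WT mice and at 14.7, 22.1, 19.99 and 13.9 CPM in the 4 untreated G93A mice of 155 days. Every G93A mouse thus lay far above every WT mouse. The difference was 6.28-fold (log2 2.65, SE 0.19, adjusted p = 2.4e-09). In treated mice Icam1 went from 3.22, 2.77, 2.43 and 1.45 CPM in WT to 23.0, 19.7, 19.9 and 16.9 CPM in G93A, a log2 difference of 3.05 (SE 0.19, adjusted p = 3.7e-10). This gene was rare in WT cords, with between 41 and 86 reads per WT mouse at this time.

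Vcam1, the ligand of the α4β1 integrin, moved least among the 8. It was already at 19.6, 16.5, 17.6 and 15.7 CPM in untreated WT mice and stood at 30.5, 37.1, 41.2 and 32.6 CPM in untreated G93A mice. Both groups were narrow and did not overlap. The rise was 2.06-fold (log2 1.04, SE 0.10, adjusted p = 2.0e-07), and with OKN-007 it was 0.97 on the log2 scale (SE 0.10, adjusted p = 3.8e-07). Vcam1 is made by endothelium and by other cells of the cord, and the markers of these were read beside it. The summed level of 8 endothelial markers (Cldn5, Cdh5, Flt1, Tek, Kdr, Ly6c1, Slco1a4 and Erg) was 236 to 305 CPM in untreated WT and 243 to 295 CPM in untreated G93A mice, and 0 of 8 were called by edgeR in untreated mice, while 1, Cdh5, was lower in treated G93A mice. Of 5 mural cell markers 3 rose and 1 fell in untreated mice, and 3 rose and 2 fell in treated mice. Of 6 astrocyte markers 6 rose in untreated mice, to a sum of 13114 to 16571 CPM, and 5 in treated mice. Of all genes 21.3% rose in untreated and 23.3% in treated mice, and 18.2% fell in each. The part of these cells in the levels of Vcam1 and Icam1 was not tested.

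Within a mouse, Icam1 gained on Vcam1. The log2 ratio of Icam1 to Vcam1 lay from -2.67 to -2.28 in untreated WT and from -1.20 to -0.73 in untreated G93A mice, a difference of 1.42 (exact permutation test, two-sided, p = 0.0286, adjusted over 14 ratios 0.0286). In treated mice the difference was 1.89 with the same p. With 4 mice against 4 this is the smallest p the test can give. It was the p of all 14 ratio comparisons described here.

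Selplg, which encodes the selectin ligand PSGL-1, was second to Itgb5 per kilobase of exon in WT cords. It stood at 22.1, 29.7, 20.6 and 22.5 CPM in untreated WT and at 51.9, 66.3, 58.5 and 40.4 CPM in untreated G93A mice. The 4 G93A mice were all above the 4 WT mice. The rise was 2.31-fold (log2 1.21, SE 0.13, adjusted p = 5.4e-07) and in treated mice 1.29 on the log2 scale (SE 0.13, adjusted p = 2.2e-07). Relative to Itgb2 in the same mouse Selplg fell by 2.36 on the log2 scale in untreated and by 2.34 in treated mice.

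**Figure D1:**
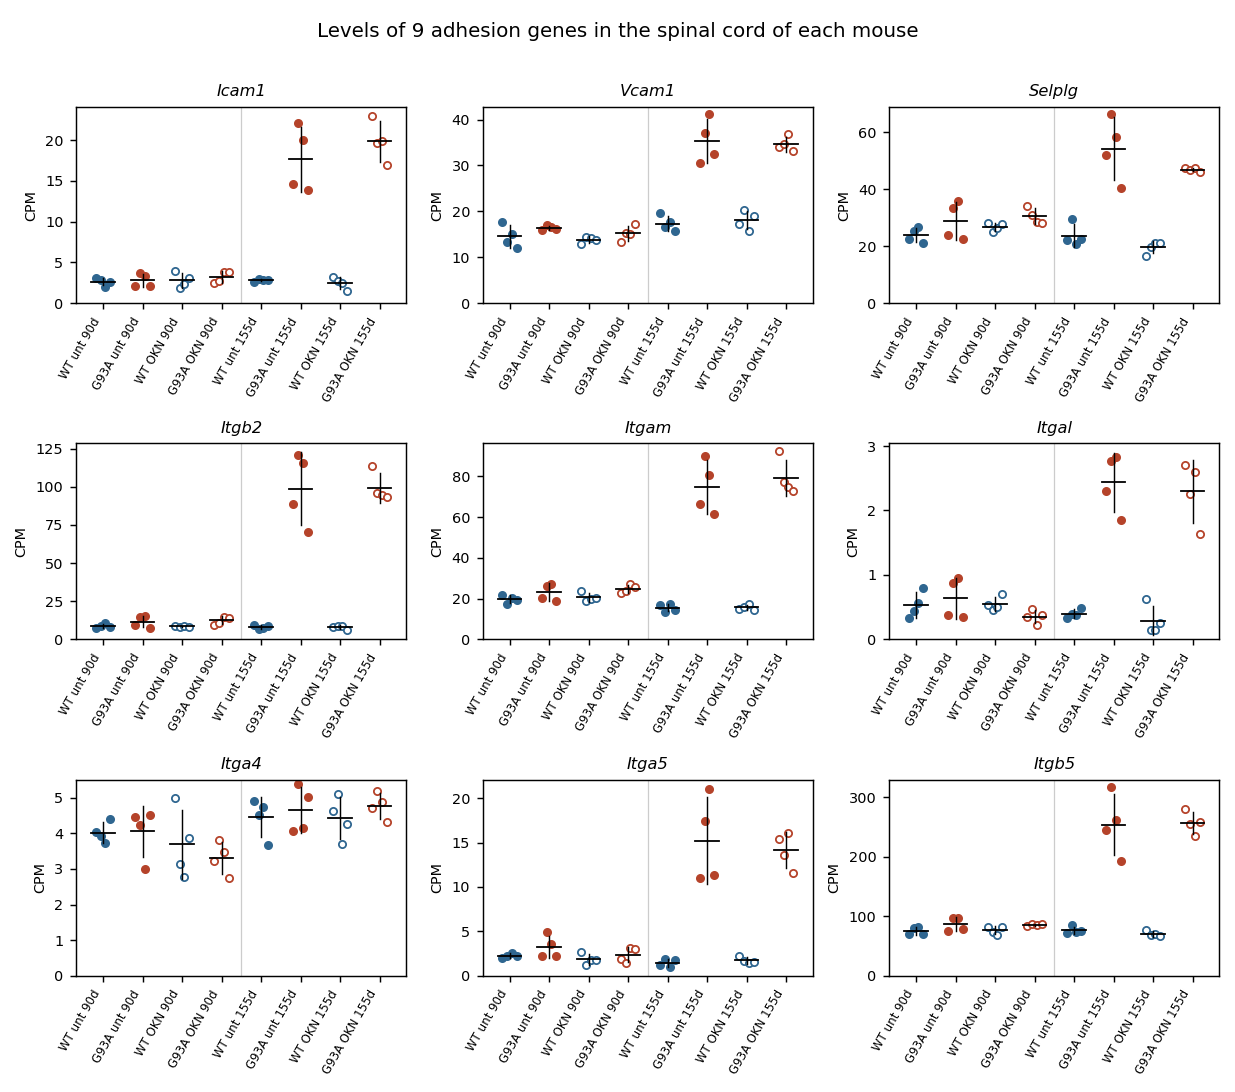
Level of each of the 9 genes in CPM in each of the 32 mice, by group (WT in blue, G93A in red, filled untreated, open OKN-007, 90 days left and 155 days right of the grey line). Bars are the mean and SD of 4 mice. For 8 genes every G93A mouse of 155 days lies above every WT mouse of 155 days, and for Itga4 the groups overlap. Of all 18675 genes tested at 155 days, 13.6% were higher in this way over both treatments together.

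Itgb2, the common β subunit of the leukocyte integrins, showed the largest difference of the family. It was at 9.17, 6.69, 7.38 and 8.66 CPM in untreated WT mice and at 88.8, 121, 115 and 70.3 CPM in untreated G93A mice. The lowest G93A mouse lay far above the highest WT mouse. The difference was 12.5-fold (log2 3.64, SE 0.16, adjusted p = 1.2e-11), and in treated mice, which ran from 6.22 to 8.85 CPM in WT and from 93.2 to 114 CPM in G93A, it was 12.9-fold (log2 3.69, SE 0.16, adjusted p = 5.7e-12).

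Its partners rose less. Itgam, the α chain of Mac-1 and a common microglial marker, was at 16.8, 13.6, 17.4 and 14.6 CPM in untreated WT and at 66.3, 90.2, 80.7 and 61.4 CPM in untreated G93A mice. That is a 4.83-fold rise (log2 2.27, SE 0.12, adjusted p = 8.3e-11), and in treated mice the rise was 2.37 on the log2 scale (SE 0.12, adjusted p = 3.8e-11). Itgal, the α chain of LFA-1 and the scarcest member, had 9, 9, 10 and 15 reads in the untreated WT mice (0.34, 0.39, 0.38 and 0.49 CPM) and 59, 67, 69 and 56 reads in the untreated G93A mice (2.31, 2.77, 2.83 and 1.85 CPM). It rose 6.05-fold (log2 2.60, SE 0.32, adjusted p = 3.5e-06) in untreated and by 3.02 on the log2 scale (SE 0.34, adjusted p = 7.7e-07) in treated mice. With these few reads its SE was the widest of the 9.

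The ratios within each mouse show the unequal rise directly. The log2 ratio of Itgam to Itgb2 was 0.72 to 1.18 in untreated WT and -0.51 to -0.19 in untreated G93A mice. The ratio fell by 1.32 on the log2 scale in untreated and by 1.29 in treated mice. For Itgal to Itgb2 it fell by 1.83 and 1.73, where the level of Itgal in WT is near the pseudocount of 0.5 CPM used for ratios. With a pseudocount of 0.1 CPM these values were -1.26 (exact permutation, adjusted p = 0.0308) and -0.90 (adjusted p = 0.0857), so the call in treated mice was lost.

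The remaining α partners of Itgb2 were looked at after this difference had been seen. Itgax lay at 0.23 to 0.61 CPM (7 to 16 reads) in untreated WT and at 47.9 to 76.9 CPM (1224 to 1857 reads) in untreated G93A mice of 155 days. Its log2 difference was 7.25 (SE 0.24, adjusted p = 2.4e-13) in untreated and 8.19 (adjusted p = 9.75e-14) in treated mice. Itgad, another α partner, was at 0.48 ± 0.54 CPM in WT and 1.01 ± 1.43 CPM in G93A (SD, n = 4), and edgeR's adjusted p was 0.32. Per kilobase of exon, Itgam made up 92.5% ± 3.2 of the 4 α subunits together in untreated WT and 52.8% ± 2.8 in untreated G93A mice (SD, n = 4), while Itgax made up 1.44% to 3.45% in WT and 42.2% to 47.2% in G93A. The sum of the 4 α subunits over Itgb2, both per kilobase, was 1.30 ± 0.17 in WT and 0.88 ± 0.07 in G93A. In treated mice the sum over Itgb2 was 1.32 ± 0.19 and 0.93 ± 0.04. Having been chosen after the values were seen, these shares carry no test. They are messenger levels, and pairing of the proteins was not measured. The lengths take in every annotated exon of a gene, so shares and sums across genes are approximate.

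**Figure D2:**
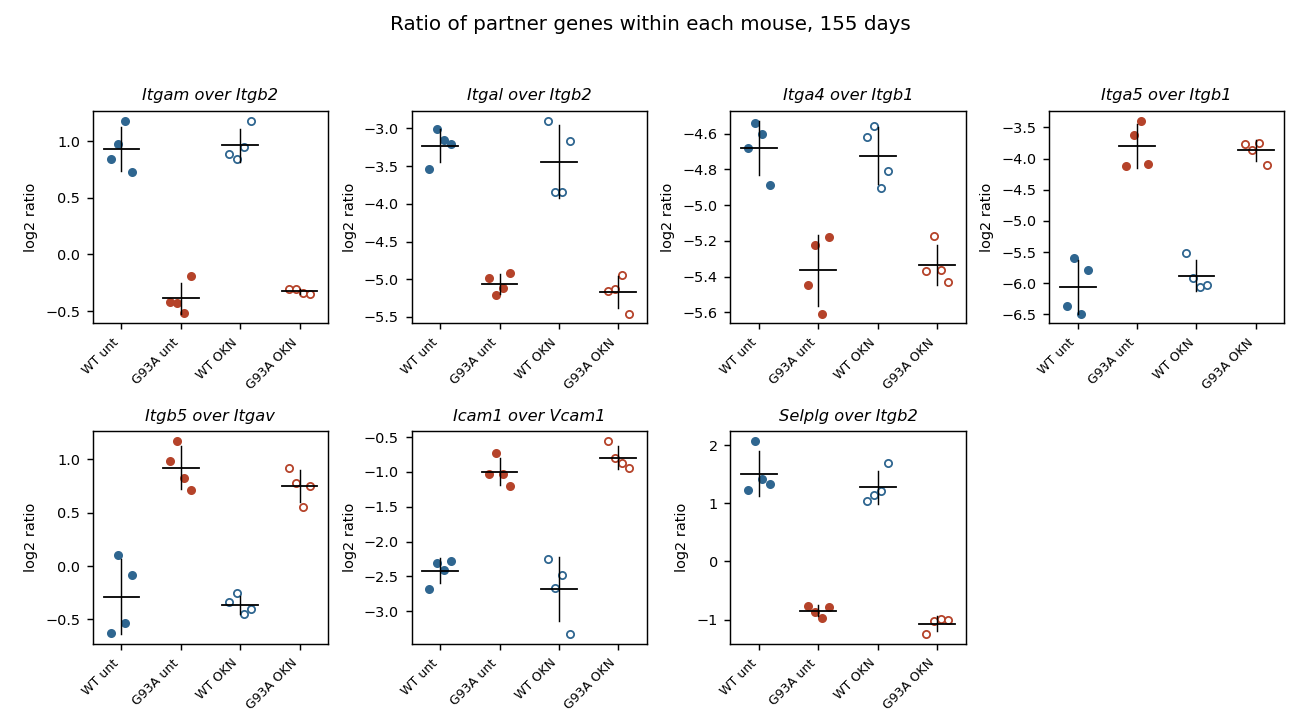
Log2 ratio of the CPM of the 2 genes of a pair (each plus 0.5) within each mouse of 155 days, WT in blue and G93A in red, filled untreated and open OKN-007, with mean and SD of 4 mice. Icam1 with Vcam1 and Selplg with Itgb2 are not subunits of 1 integrin. In all 7 pairs and both treatments the 4 G93A mice lie apart from the 4 WT mice. Itgam, Itgal and Selplg fell against Itgb2, Itga4 fell against Itgb1, and Itga5, Itgb5 and Icam1 rose against Itgb1, Itgav and Vcam1.

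The α4 and α5 subunits, which both pair with Itgb1, went apart. Itga4, the chain that binds VCAM-1 and that lymphocytes and monocytes use to enter the nervous system, was at 4.92, 4.52, 4.74 and 3.68 CPM in untreated WT and at 4.07, 5.38, 4.14 and 5.03 CPM in untreated G93A mice. The groups overlapped over most of their range. The log2 difference was 0.08 (SE 0.14, adjusted p = 0.70) in untreated and 0.15 (SE 0.14, adjusted p = 0.43) in treated mice, with between 99 and 152 reads per mouse. A change of the size of 1 SE would not be told from 0.

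Itga5, the α chain of the fibronectin receptor, was low in WT cords, at 1.19, 1.91, 0.92 and 1.74 CPM. In untreated G93A mice it was at 10.99, 17.5, 21.1 and 11.3 CPM. It rose 10.6-fold (log2 3.41, SE 0.24, adjusted p = 2.4e-09), second to Itgb2, and in treated mice by 3.08 on the log2 scale (SE 0.24, adjusted p = 5.4e-09). Itgb1, the β chain of both, went from 126 ± 9 to 211 ± 14 CPM (SD, n = 4 each) in untreated mice, a log2 difference of 0.75 (SE 0.07, adjusted p = 6.9e-08). Against Itgb1 in the same mouse, Itga5 rose by 2.26 and 2.01 on the log2 scale (untreated and treated) and Itga4 fell by 0.69 and 0.61.

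Itgb5, whose product pairs with αv to bind vitronectin, was the most abundant member per kilobase of exon in all 8 groups. It stood at 71.2, 84.8, 73.4 and 75.9 CPM in untreated WT and at 245, 317, 263 and 192 CPM in untreated G93A mice. The groups were well apart, and the rise was 3.37-fold (log2 1.75, SE 0.11, adjusted p = 6.9e-10). In treated mice it was 1.90 on the log2 scale (SE 0.11, adjusted p = 2.0e-10). Its partner Itgav rose by 0.51 (SE 0.11, adjusted p = 8.9e-04) in untreated mice, and the log2 ratio of Itgb5 to Itgav rose by 1.21 in untreated and 1.11 in treated mice.

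Levels of different genes were set side by side per kilobase of exon, taking every annotated exon of a gene. The expressed transcript can be shorter than that, so the order between genes is approximate. In untreated WT mice of 155 days the order was Itgb5 (21.5 ± 1.7 CPM per kb, SD, n = 4), Selplg (5.55 ± 0.95), Itgam (3.11 ± 0.35), Itgb2 (2.61 ± 0.37), Vcam1 (1.96 ± 0.19), Icam1 (0.65 ± 0.03), Itga4 (0.32 ± 0.04), Itga5 (0.29 ± 0.09) and Itgal (0.06 ± 0.01). The ranges of Itgam, Itgb2 and Vcam1 overlapped from neighbour to neighbour, as did those of Itga4 and Itga5. In untreated G93A mice the order became Itgb5 (71.6 ± 14.5), Itgb2 (32.4 ± 7.8), Itgam (14.9 ± 2.6), Selplg (12.7 ± 2.6), Icam1 (4.05 ± 0.92), Vcam1 (3.98 ± 0.54), Itga5 (3.08 ± 0.998), Itgal (0.37 ± 0.07) and Itga4 (0.33 ± 0.05). There Itgb2 had passed Itgam and Selplg, Icam1 had drawn level with Vcam1, and Itgal with Itga4. Overlaps between neighbours were found for Itgam and Selplg, for Icam1, Vcam1 and Itga5, and for Itgal and Itga4.

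Microglial markers moved with the family, so each member was set against them in the same mouse. The summed level of 8 microglial markers (Tmem119, P2ry12, Cx3cr1, Csf1r, Sall1, Gpr34, Siglech and Aif1) was 171 to 207 CPM in untreated WT and 452 to 690 CPM in untreated G93A mice of 155 days. All 8 rose, against 21.3% of all genes. In bulk RNA, more cells of a type and more RNA per cell cannot be told apart. Against this sum, Itgb2 rose by a further 2.02 on the log2 scale in untreated and 1.87 in treated mice, Itga5 by 1.49 and 1.01, Icam1 by 0.91 and 1.10, and Itgam by 0.70 and 0.58 (exact permutation test, two-sided, p = 0.0286 each, adjusted over 18 tests 0.0396). Itgb5 differed from the markers by 0.20 and 0.15 (exact p = 0.229 and 0.143) and Itgal by 0.19 and 0.13 (exact p = 0.286 and 0.571). For Itgal the size rests on the pseudocount, since with 0.1 CPM it was 0.82 (exact permutation, adjusted p = 0.0367) and 1.04 (adjusted p = 0.0686). Vcam1 fell by 0.51 and 0.79 and Itga4 by 1.46 and 1.61 relative to the markers, each at exact p = 0.0286, and Selplg differed by -0.34 in untreated (exact p = 0.114) and -0.48 in treated mice (exact p = 0.0286). The markers themselves rose unequally in untreated mice, from 0.39 on the log2 scale for P2ry12 to 2.70 for Aif1, so the size of these ratios depends on which markers are summed. The log2 differences of Itgb2 (3.64) and Itga5 (3.41) lay above those of all 8 markers and that of Itga4 (0.08) below all 8, while the other 6 members lay within the range of the markers. In treated mice the markers ran from 0.60 (P2ry12) to 2.92 (Aif1), with Itgb2, Itga5, Icam1 (3.05) and Itgal (3.02) above all 8, Itga4 (0.15) below all 8 and the other 4 members within.

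Markers of blood leukocytes were near the limit of detection. Of all genes 21.3% rose in untreated and 23.3% in treated mice, beside which the counts of called markers stand. The 6 T cell genes (Cd3e, Cd3d, Cd3g, Cd4, Cd8a and Lck) summed to 0.85 to 1.30 CPM in untreated WT and 2.11 to 2.77 CPM in untreated G93A mice. Of the 3 that could be tested 2 rose, Cd3g and Cd8a, each with at most 18 reads in a mouse. The 7 neutrophil genes summed to 0.26 to 2.75 CPM in WT and 0.98 to 1.19 CPM in G93A, with Ly6g at 0 or 1 read. The 7 genes of monocytes and border macrophages, led by Mrc1 and Cd163, summed to 2.50 to 3.21 CPM and 3.27 to 5.38 CPM, and 0 of the 3 tested were called by edgeR in untreated mice. In treated mice 1 of the 3 rose, the border macrophage gene Mrc1 (log2 0.77, adjusted p = 0.0090), from 1.19 ± 0.35 to 1.99 ± 0.31 CPM (SD, n = 4). The 4 B cell genes summed to under 1 CPM in both groups. Their part in the levels of Itgb2, Itgal and Selplg was not tested.

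When the Hox score entered the model, 8 of 9 members were called in each treatment, as were 8 of 9 without the 3 G93A mice whose score was under 2, an alternative chosen after seeing the data. The log2 differences of Itgb2 in untreated mice were then 3.47 and 3.55. The share of all genes called under these 2 settings is not given here. At 155 days the score hardly overlapped between the genotypes, at 2.93 to 4.16 in WT and 0.56 to 3.01 in G93A mice. A model with the score thus cannot fully separate position from genotype.

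**Figure D3:**
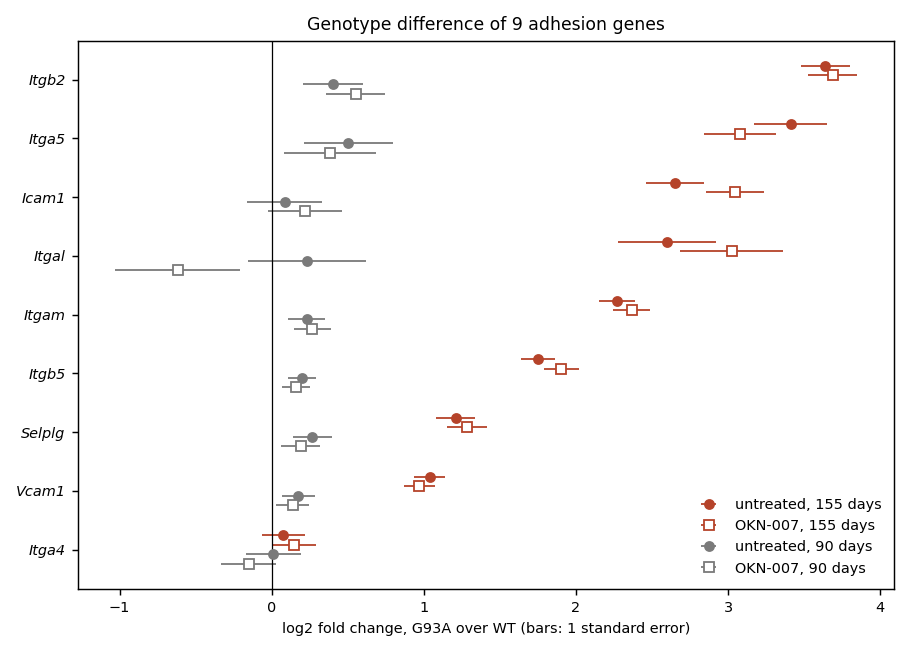
Log2 fold change of G93A over WT (horizontal axis) for the 9 genes at 155 days (red) and 90 days (grey), filled untreated and open OKN-007. Bars are 1 SE from edgeR. At 155 days 8 genes lie between 0.97 and 3.69 and Itga4 near 0, and at 90 days no gene was past the threshold.

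The second question was whether the family already differed at 90 days. No member was called in untreated mice, in treated mice or in the mean of both treatments by edgeR's quasi-likelihood test, its likelihood ratio test or DESeq2. Few genes of any kind were called by the quasi-likelihood test: 0% of the 18899 tested in untreated and in treated mice, and 0.0265% in the mean. The shares for the likelihood ratio test and DESeq2 are not given here. At an unadjusted p under 0.05 there were 1 member in untreated mice (Itgb5, against 5.96% of all genes), 2 in treated mice (Itgb2 and Itgam, against 3.95%) and 5 in the mean of both treatments (Itgb2, Itgam, Itgb5, Selplg and Itga5, against 6.61%). In treated mice 2 members, Itgb2 and Itgb5, were higher in G93A without overlap, against 1.56% of genes. In untreated mice it was 0 of 9, against 1.21% of genes. Over both treatments together it was also 0 of 9, against 0.0212%.

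Itgb2 had the largest log2 difference of the 9 in the mean of both treatments, while in untreated mice that of Itga5 and in treated mice that of Itgal was farther from 0. Its levels were 7.66, 8.82, 10.7 and 8.16 CPM in untreated WT and 9.46, 14.6, 15.2 and 7.57 CPM in untreated G93A mice, and 8.72, 8.42, 8.98 and 8.02 CPM in treated WT and 9.52, 11.04, 14.96 and 14.3 CPM in treated G93A mice. In the untreated G93A group a pair of mice was clearly above WT and the other two were not, and in the treated group all 4 were above WT. The G93A mouse at 14.6 CPM was replicate 10 and the WT mouse at 10.7 CPM replicate 3, which had the highest Schwann cell sums. The log2 difference was 0.40 (SE 0.20, adjusted p = 0.82) in untreated, 0.55 (SE 0.20, adjusted p = 1) in treated mice and 0.48 (SE 0.14, adjusted p = 0.36) in the mean. Without the filter on low counts the mean difference of Itgb2 had an adjusted p of 0.033. Leaving out 1 mouse, the log2 difference of Itgb2 ran from 0.24 to 0.57 in untreated and from 0.45 to 0.66 in treated mice.

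In the mean of both treatments the log2 differences were 0.44 for Itga5 (SE 0.21, adjusted p = 0.75), 0.25 for Itgam (SE 0.09, adjusted p = 0.55), 0.23 for Selplg (SE 0.09, adjusted p = 0.635) and 0.18 for Itgb5 (SE 0.07, adjusted p = 0.58). Those of Vcam1 (0.16), Icam1 (0.15), Itga4 (-0.07) and Itgal (-0.19) had unadjusted p-values of 0.0548 or more in edgeR. Of the 8 G93A mice of 90 days, 5 were above all 8 WT mice for Itgb2, 5 for Itgam, 5 for Selplg, 6 for Itgb5, 4 for Itga5, 2 for Itgal and 0 for Icam1, Vcam1 and Itga4. The lowest G93A mouse was below the lowest WT mouse for Itgb2 (7.57 against 7.66 CPM), Itgal (0.22 against 0.33) and Itga4 (2.73 against 2.77). Such counts were not made for all genes, so they carry no background and no test. The microglial markers named above summed to 205 to 310.1 CPM in these G93A mice and 198 to 289 CPM in the WT mice.

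The third question was how the genotype difference changed between the times. Tested in a fit of all 32 mice, it was larger at 155 than at 90 days for 8 of 9 members in untreated mice, against 12.9% of 19829 genes in that direction and 21.2% in either. In treated mice it was also 8 of 9, against 13% and 23%. The largest values were those of Itgb2 (log2 3.23, SE 0.26, adjusted p = 6.7e-10), Itga5 (2.90, SE 0.39, adjusted p = 1.6e-06) and Icam1 (2.56, SE 0.31, adjusted p = 3.5e-07) in untreated mice. For Itga4 the value was 0.05 (SE 0.22, adjusted p = 0.91).

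In untreated mice the change lay mainly in the G93A mice. The times were not compared by a test within treated mice. There the WT mean of Selplg went from 26.8 to 19.7 CPM and the G93A mean from 30.5 to 46.9 CPM. Between 90 and 155 days untreated G93A mice rose in 8 of 9 members, against 21% of genes that rose and 33.7% called, with log2 values of 3.09 for Itgb2 (SE 0.18, adjusted p = 1.9e-13), 2.65 for Icam1 (SE 0.22, adjusted p = 4.7e-11) and 2.25 for Itga5 (SE 0.26, adjusted p = 3.2e-08). In untreated WT mice 1 of 9 was called, against 24.9% of all genes, and 0 of 9 without replicate 3 of 90 days, the mouse with the highest Schwann cell sum. It was Itgam, which fell by 0.34 on the log2 scale (SE 0.12, adjusted p = 0.039), from 17.5 to 22.0 CPM at 90 days to 13.6 to 17.4 CPM at 155 days. The call was lost without WT untreated replicate 1 or replicate 3 of 90 days (adjusted p = 0.13 and 0.084), without replicate 2 or replicate 4 of 155 days (0.12 and 0.089), and without the filter on low counts (0.056). Vcam1 (log2 0.25, adjusted p = 0.077) and Itga5 (-0.65, adjusted p = 0.11) were not called in edgeR. The make-up of the libraries also differed between the times. The 4 oligodendrocyte genes summed to 24680 to 31495 CPM at 90 and 16477 to 17842 CPM at 155 days in untreated WT mice. In untreated G93A mice the sums were 23522 to 28409 and 16433 to 19468 CPM. The part of this difference in the levels of the members was not tested.

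The fourth question was the effect of OKN-007. No member was called for OKN-007 against untreated mice in either genotype at either time, nor in the genotype by treatment interaction, and 0% of all genes tested were called in each of these 6 comparisons by edgeR's quasi-likelihood test. DESeq2 and the likelihood ratio test also called 0 members, and their shares of all genes are not given here. At an unadjusted p under 0.05 there was 1 member in all 6, Selplg in WT mice of 155 days, against 2.94% of all genes there. The shares of all genes at that level were 4.04% in G93A mice and 2.34% for the interaction at 155 days, and 5.56% in G93A mice, 4.07% in WT mice and 2.81% for the interaction at 90 days.

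In G93A mice of 155 days the difference with the drug ran from -0.20 for Selplg (SE 0.13) to 0.18 for Icam1 (SE 0.16) on the log2 scale, with adjusted p = 1 in edgeR for both. Selplg was at 47.5, 46.6, 47.5 and 46.2 CPM in treated G93A mice, a far narrower spread than the 40.4 to 66.3 CPM of untreated ones. Itgb2 was at 114, 95.7, 94.8 and 93.2 CPM in treated against 88.8, 121, 115 and 70.3 CPM in untreated G93A mice, with a log2 difference of 0.02 (SE 0.14). A difference of the size of 1 SE could not be told from 0 here. In WT mice of 155 days, Selplg differed by -0.27 (SE 0.13) and Itgal by -0.49 (SE 0.40).

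At 90 days the lowest value in G93A mice was that of Itgal, with 9, 12, 6 and 11 reads in treated and 10, 18, 22 and 10 in untreated mice. Its log2 difference was -0.82 (SE 0.41, unadjusted p = 0.058, adjusted 0.84 in edgeR), and the interaction with genotype was -0.85 (SE 0.57, adjusted p = 1). Itga5 was at 1.90, 1.46, 3.14 and 2.97 CPM in treated and 2.15, 4.87, 3.61 and 2.24 CPM in untreated G93A mice (log2 -0.43, SE 0.29, adjusted p = 0.84). The groups overlapped for both genes.

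Other genes of the adhesion machinery were read from 4 lists. In all genes tested at 155 days, 21.3% rose and 39.5% were called in untreated mice and 23.3% and 41.5% in treated mice, beside which the counts below stand. Of 21 further integrin subunits 19 could be tested in untreated mice of 155 days, and 7 rose and 2 fell, with a list median of 0.51 against 0.00 over all genes. Itgax led, followed by Itga2 (log2 2.81, a collagen receptor chain, at 1.66 ± 1.41 CPM in G93A, SD, n = 4), Itga7 (1.09) and Itga6 (0.89), which are laminin receptor chains. In treated mice 8 rose and 2 fell. Itgb8, which activates latent TGF-β together with αv, rose in treated mice (log2 0.95, adjusted p = 7.2e-04) and had 0.38 (adjusted p = 0.13) in untreated mice, and Itga3 fell in treated mice (-0.32, adjusted p = 0.0086).

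**Figure D4:**
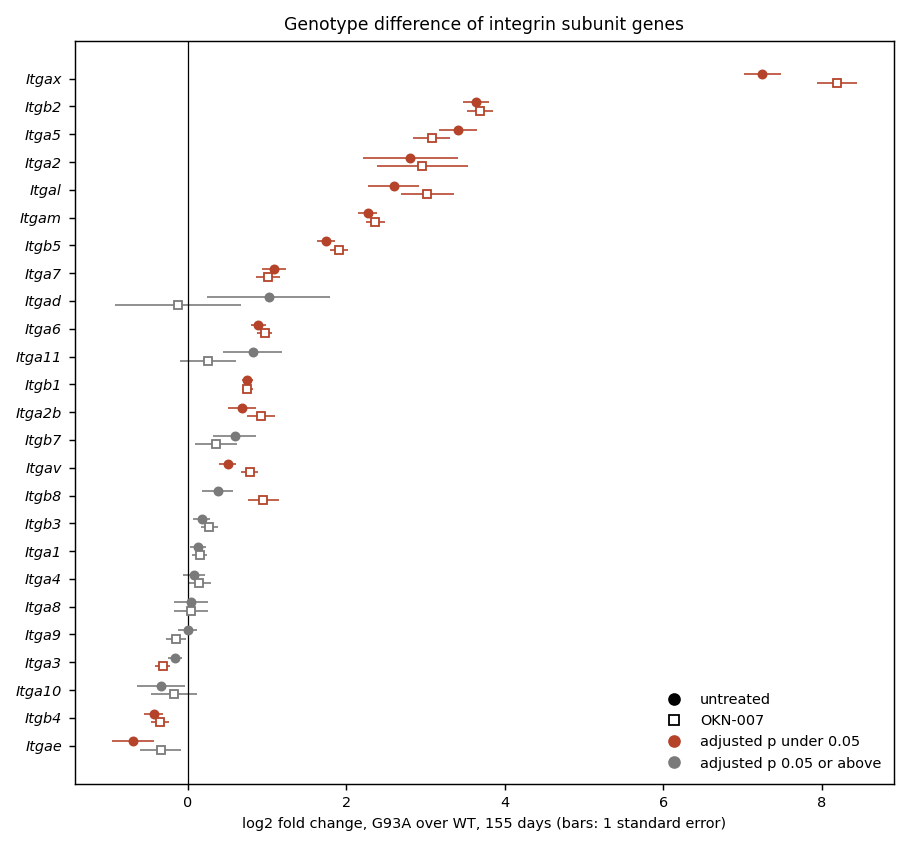
Log2 fold change of G93A over WT at 155 days (horizontal axis) for every integrin subunit gene tested, filled untreated and open OKN-007, with 1 SE from edgeR. Red marks an adjusted p under 0.05. Itgax (7.25 and 8.19), Itgb2, Itga5 and Itgal lie to the right, and Itga4, Itga8 and Itga9 near 0.

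Of 27 other adhesion molecules of leukocytes and endothelium 17 could be tested, and 6 rose and 3 fell in untreated mice, with a median of 0.13. Those that rose most were Cd48 (log2 4.41, adjusted p = 5.7e-10), a leukocyte surface protein of the SLAM family, Cd44 (2.75, adjusted p = 8.9e-11), a hyaluronan receptor, Cd34 (2.04, adjusted p = 3.0e-11), a sialomucin, and F11r (1.73, adjusted p = 9.7e-09), the junction protein JAM-A and a ligand of LFA-1. In treated mice 8 rose and 4 fell. The genes called there and not in untreated mice were Glycam1 (2.56) and Spn (1.56), which rose, and Cdh5 (-0.41) and Pecam1 (-0.30), junction proteins of endothelium, which fell.

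Of 30 genes of integrin activation and signalling tested 21 rose and 3 fell in both treatments, with a median of 0.86 in untreated mice. The adaptor Tyrobp (log2 3.91, adjusted p = 7.3e-11), which signals for Mac-1 and other myeloid receptors, rose most, followed by Fyb (2.96), the Src family kinase Fgr (2.89) and the exchange factor Vav1 (2.71), all acting in blood cell lineages. Kindlin-3 (Fermt3), which switches β2 integrins on, went from 4.88 ± 0.94 CPM in untreated WT to 27.0 ± 7.9 CPM in untreated G93A mice (SD, n = 4, log2 2.49, adjusted p = 2.7e-09). Its widely expressed relative Fermt2 stood at 132 ± 9 and 143 ± 9 CPM (log2 0.13, adjusted p = 0.14). These last 2 genes were chosen after their values were seen.

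Of 20 ligands tested 9 rose and 3 fell in untreated mice, with a median of 0.70. Ccn1 rose most (log2 3.87, adjusted p = 6.6e-07) but unevenly, at 47.2 ± 30.1 CPM in G93A (SD, n = 4). C3, whose fragment iC3b is bound by Mac-1 and by the receptor of Itgax, rose by 3.01 (adjusted p = 1.4e-09) from 79.0 ± 7.1 to 629 ± 203 CPM, Spp1 by 2.31 (adjusted p = 2.1e-09) and Tgfb1 by 2.16 (adjusted p = 3.0e-08). Fibronectin (Fn1), the ligand of the receptor that holds Itga5, was named after its value was seen and went from 37.5 ± 5.8 to 134 ± 25 CPM (log2 1.84, adjusted p = 6.8e-09). Vitronectin (Vtn), the ligand of αvβ5, was at 40.4 ± 6.8 and 41.1 ± 6.5 CPM (log2 0.04, adjusted p = 0.82), and it too was named after its value was seen. In treated mice 12 ligands rose and 4 fell, and the ones called there and not in untreated mice were Lama2 (0.43) and Mfge8 (0.29), which rose, Col4a1 (-0.46), which fell, and Fgg (4.72, adjusted p = 0.0499), which was at 1.28 ± 2.43 CPM in treated G93A mice (SD, n = 4) and overlapped with WT. Members of these lists were not called in any OKN-007 comparison or at 90 days.

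The genes whose levels ran closest to each member over the 32 mice were found by the root mean square difference of log2 CPM after centring, among 19829 genes. Itgb2 was nearest to Fcrls (0.20), Cd84 (0.22) and Mpeg1 (0.23), known from microglia or other phagocytes. Itgam was nearest to Unc93b1 (0.14), Ctsc and Pros1, and Itga5 to Ctsz (0.24), Cd14 and Vav1. Icam1 was nearest to Plek (0.20), Pik3ap1 and Grn, and Itgb5 to Hexa (0.11), Plcg2 and Csf1r. Itgal had Hexa (0.24), the member Itgb5 and Gm5431. The other 3 had these neighbours: Vcam1 to Lrig1 (0.14), Erap1 and Scg3, Selplg to Cst3 (0.16), Abhd4 and Mlc1, and Itga4 to Cux1 (0.17), Zbtb5 and Dhx37. For Itga4, whose own spread over the mice was 0.23, such a distance says little. The 32 mice share the genotype and time differences, so these distances describe the pattern and carry no test.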

How the data were processed

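Spinal cord RNA (25 mg of tissue, TRIzol, TruSeq Stranded mRNA libraries, NextSeq) was sequenced from 32 mice, 4 in each of 8 groups taken from the labels. The values are raw read counts per gene, deposited by the authors without normalization. How the authors made the counts is given in 2 ways: the study's methods name Trimmomatic, STAR, HTSeq and the GENCODE M10 annotation of GRCm38, and the submitters' processing notes name FastQC, STAR, featureCounts, edgeR and the builds GRCm39, mm39 and hg38. The table holds 1321 of 42524 identifiers that GENCODE M21 lacks, so symbols were paired for 41203 (96.9%), and exon lengths come from GENCODE M21, not from the annotation used for counting. No coordinates of genes in the build of the counts are given. Counting error only is covered by the limit of 3 counts.

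Counts were analysed in R 4.3.3 with edgeR 4.0.16: filterByExpr, TMM, estimateDisp, glmQLFit and glmQLFTest, two-sided, on the 16 mice of each time as 4 groups, and on all 32 mice for comparisons of the times. CPM use the TMM scaling of all 32 mice. Ratios within a mouse used log2(CPM + 0.5) and the exact permutation test over all 70 splits of 4 and 4 mice. The scripts were tested on simulated data. The labels name no library or sequencing batch, so no within-batch value could be had. Where the labels give separate samples they were taken as separate mice.

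The members, the lists and the markers were chosen with earlier results of these data known. Named in the text were all members, the 4 genes of each list with the largest log2 change among those called in untreated mice of 155 days, list genes called in treated mice alone, and the 3 genes nearest to each member. List genes called in the comparisons of the times were not named. Alternatives were edgeR's likelihood ratio test, DESeq2 1.42.0, RLE factors, no filter, at least 10 counts in every mouse, all mice in one fit, a block for the sample number, the caudal Hox score (Hoxa10, Hoxc10, Hoxd10, Hoxa11, Hoxc11, Hoxd11) as covariate, another pseudocount, and leaving out each mouse. The human transgene was not analysed here. A planned marker of microglia and one of Schwann cells are not reported here, and the microglial sums and ratios were computed without it, on 8 markers in place of the planned list.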

Additional observations from a re-analysis of the deposited data

Results flagged for a closer look

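The level of Itgb2 in the treated G93A mouse of 155 days with replicate number 13, 114 CPM, stood apart from the other 3 of its group, the nearest of which was at 95.7 CPM. It was the 1 such value among 72 groups of 4 mice looked at (9 genes in 8 groups), where chance gives about 1 in 20, or 3.6. Without this mouse the difference of Itgb2 between treated and untreated G93A mice was -0.06 on the log2 scale in place of 0.02, and it was not called in either.

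The difference between G93A and WT mice itself differed between 155 and 90 days for 8 members by the interaction term of edgeR. In untreated mice the log2 size of this change was 3.23 for Itgb2, 2.90 for Itga5, 2.56 for Icam1, 2.36 for Itgal, 2.03 for Itgam, 1.54 for Itgb5, 0.93 for Selplg and 0.85 for Vcam1. In treated mice it was 3.10 for Itgb2, 2.66 for Itga5, 2.79 for Icam1, 3.60 for Itgal, 2.07 for Itgam, 1.71 for Itgb5, 1.06 for Selplg and 0.80 for Vcam1. The caudal Hox score of the WT mice also differed between the times, from 1.20 to 3.58 at 90 days and from 2.93 to 4.16 at 155 days, while that of the G93A mice ran from 0.65 to 3.25 and from 0.56 to 3.01. With the score in the model 8 members were called in each treatment, and the share of all genes called in that model is not given here.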

How the results depend on the processing

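The counts of members or ratios past the threshold were recomputed under other settings and stayed within 1.5 times the reported count in 123 cases and not in 3. The shares of all genes called under these settings are not given here, so the counts have no background. Without the filter on low counts the mean of both treatments at 90 days gave 1 member (Itgb2, log2 0.46, adjusted p = 0.033) in place of 0, and the WT comparison of the times gave 0 in place of 1. In the main fit 24.9% of all genes were called in that WT comparison. With the sample number as a replicate block it gave 3 members (Itgam -0.34, Vcam1 0.26, Itga5 -0.67). The numbers are shared by mice of the 2 times, whose deviations correlated from -0.22 to 0.21, with 3 of 16 mice closest to their own number, so they do not pair the mice. Requiring at least 10 counts in every mouse gave 7 in place of 8 in the genotype comparisons of 155 days, since Itgal was then not tested. Leaving out 1 mouse, the WT count ran from 0 to 1, where without WT untreated replicate 1 of 90 days or replicate 4 of 155 days the 1 gene was Vcam1 and not Itgam. Some values changed sign. Itga4's change between the times was -0.017 with the Hox score and ran from -0.068 to 0.11 leaving out 1 mouse, its mean difference at 90 days from -0.13 to 0.019, and the drug difference of Itgb2 in G93A mice of 155 days from -0.11 to 0.13. With a pseudocount of 0.1, Itgal against the microglial markers was 0.82 in untreated mice (exact permutation, adjusted p = 0.037, in place of 0.19), and against Itgb2 -0.90 in treated mice (exact permutation, adjusted p = 0.086). Ratios to a sum of 3 microglial markers were not run. Depth limits Itgal most, at 4 to 16 reads per WT mouse of 155 days.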

Other observations

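The levels of the members were set against the caudal Hox score among mice of 1 genotype and time, 8 mice each, in 36 relations. None passed adjustment. The closest was Itga5 in G93A mice of 90 days, with Pearson's r = 0.83 (exact permutation p = 0.0063, adjusted 0.23) and Spearman's rho = 0.90 (exact permutation p = 0.0046, adjusted 0.16), and r = 0.70 without the 2 mice farthest from the median score. For Itgb2 in the same mice r was 0.57 (exact permutation p = 0.16, adjusted 0.68), rho 0.71 (exact permutation p = 0.058, adjusted 0.41) and r without those 2 mice 0.91. In WT mice of 90 days the values were -0.03 for Itga5 and -0.52 for Itgb2 (exact permutation p = 0.94 and 0.19). The G93A mice of 90 days hold treated and untreated animals, and within each treatment 4 mice are too few for such a value.

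At 90 days Itgax was at 0.52 to 2.71 CPM (14 to 63 reads) in untreated G93A mice and at 0.75 to 3.03 CPM (19 to 82 reads) in treated ones, against 0.34 to 0.96 CPM (9 to 24 reads) in WT mice. Itgam still made up 89.4% ± 5.7 and 91.6% ± 3.1 of the α subunits that pair with Itgb2 in these G93A groups (SD, n = 4, per kilobase of exon), against 92.4% ± 2.8 and 92.8% ± 1.1 in WT.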
